A study of Mus musculus with 2 samples.

Results

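The fibroblast growth factor (FGF) and ERK pathway was examined through 9 genes, defined by a list of names with no threshold on their values, though earlier results of these data were known when the list was made. They are the ligand Fgf4, the receptors Fgfr1 and Fgfr2, the feedback inhibitors Spry2, Spry4, Spred1 and Dusp6, and the ETS transcription factors Etv4 and Etv5. All 9 were found among the 18193 genes that the array annotation names by a probe set of a single gene. They had 30 probe sets, of which 27 exceeded the floor of both arrays and 3 lay below it on both. The floor, below which signals were not read as levels, was the median signal of an array (control 60.9, knockout, or KO, 74.2). RNA came from mouse embryonic stem (ES) cells, 1 culture labelled as Dnmt1 KO and 1 labelled as its control, each on 1 Affymetrix Mouse Genome 430 2.0 array. Dnmt1 is the enzyme that copies DNA methylation onto newly made strands. The title alone marks the KO sample, because the source name of both samples describes a control. Neither the allele nor the parental line, number of clones or culture medium is given by the labels.

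With 1 array per group there was no spread between replicates, so no difference was tested and each ratio describes these 2 arrays. Ratios are KO over control on the log2 scale, where 1 is a doubling. Most genes had a higher deposited signal on the KO array, with a median log2 ratio of 0.43 over the 10995 genes that exceeded both floors. Ratios are given relative to this shift unless they are called as deposited. The middle 90% of these genes lay between -0.53 and 0.56 relative to the shift. The SD between probe sets of 1 gene, pooled over 4704 genes, was 0.24 on the log2 scale, and this technical scale covers neither cultures nor arrays. The brightest Dnmt1 probe set read 1949.1 for the control and 262.1 for the KO. All 8 ES cell markers listed, among them Pou5f1 and Sox2, were above the floor on both arrays. Of 10 fibroblast markers that feeder cells would bring, Col3a1, Dcn, Lum, Postn, Pdgfra and Pdgfrb were below the floor on both arrays. The other 4 exceeded both floors, with ratios of -0.66 for Col1a1, -0.28 for Col1a2, 0.27 for Thy1 and 0.99 for Fbln1 (189.3 to 505.7). The summed signal of the 10, as deposited, was 955.3 on the control and 1535.4 on the KO array. This sum and those that follow include signals below the floor and still carry the shift, which is 1.34-fold. Of 10 primitive endoderm markers, Sox7, Pdgfra and Afp were below the floor on both arrays. Gata4, Gata6 and Sox17 were below it on 1 array, with bounds of at most -0.54, at most -0.37 and at least 0.32. Foxa2, Dab2, Lamb1 and Col4a1 (chromosome 8) exceeded both floors, with ratios of -0.18, 0.10, 0.08 and 0.24. The deposited sums of the 10 were 1643.2 and 2403.7. Of the 6 neural progenitor markers found on the array, Sox1, Zic1 and Neurog2 were below the floor on both arrays. Pax6, Nes and Tubb3 (chromosome 8) exceeded both floors, with ratios of -0.52, -0.50 and -0.49. The deposited sums of the 6 were 1022.3 and 971.8. The part of these cells in the ratios below was not tested, and in bulk RNA fewer cells of a type and less RNA per cell cannot be told apart.

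In ES cells FGF4 is secreted and acts back on the same cells through FGF receptors, which are tyrosine kinases. The signal passes through RAS, RAF and MEK to ERK, and it prepares the cells to leave the naive state and enter lineages. ERK activity also raises the transcription of its own brakes, so that the mRNA of Sprouty, Spred and Dusp6 genes and of the ETS factors Etv4 and Etv5 is often used as a readout of the pathway. The arrays measured mRNA only, not ERK phosphorylation.

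Promoter sequences are shown because Dnmt1 acts on CG dinucleotides, and they let the CG content of genes on both sides of the shift be seen. RefSeq (GRCm38.p6) promoters were matched for 6 of the 9 genes, giving 7 starts, and Fgfr1, Spry4 and Etv4 were not matched. The 250 bases before the start are printed 5′ to 3′ on the strand of the gene, with every CG in capitals. The genes shown are the ligand Fgf4, the feedback phosphatase gene Dusp6, the ETS factor Etv5 with both of its starts, and the receptor Fgfr2, whose promoter held the fewest CG.
Fgf4 (chr7:144861136-144861385, + strand): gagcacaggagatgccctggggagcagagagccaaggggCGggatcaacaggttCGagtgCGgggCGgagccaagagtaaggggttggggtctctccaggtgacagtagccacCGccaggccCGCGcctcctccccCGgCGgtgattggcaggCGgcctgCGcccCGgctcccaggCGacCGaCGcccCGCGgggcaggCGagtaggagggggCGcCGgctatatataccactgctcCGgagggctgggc
Dusp6 (chr10:99262981-99263230, + strand): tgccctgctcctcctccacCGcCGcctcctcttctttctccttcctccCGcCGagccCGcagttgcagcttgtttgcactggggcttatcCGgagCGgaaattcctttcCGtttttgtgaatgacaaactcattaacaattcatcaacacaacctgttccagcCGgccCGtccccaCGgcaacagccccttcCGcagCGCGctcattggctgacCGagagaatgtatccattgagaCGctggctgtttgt
Etv5 upstream start (chr16:22439571-22439820, - strand): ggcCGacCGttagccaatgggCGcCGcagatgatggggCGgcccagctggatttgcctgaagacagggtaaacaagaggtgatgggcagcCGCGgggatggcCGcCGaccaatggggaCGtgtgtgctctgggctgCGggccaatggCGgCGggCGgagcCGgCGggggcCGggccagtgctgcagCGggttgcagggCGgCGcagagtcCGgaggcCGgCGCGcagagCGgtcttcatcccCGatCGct
Etv5 downstream start (chr16:22438369-22438618, - strand): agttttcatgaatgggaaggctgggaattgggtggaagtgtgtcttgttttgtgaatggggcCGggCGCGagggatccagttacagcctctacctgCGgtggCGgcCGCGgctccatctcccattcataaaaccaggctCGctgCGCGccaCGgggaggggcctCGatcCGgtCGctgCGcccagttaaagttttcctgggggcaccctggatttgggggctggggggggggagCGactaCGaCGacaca
Fgfr2 (chr7:130266809-130267058, - strand): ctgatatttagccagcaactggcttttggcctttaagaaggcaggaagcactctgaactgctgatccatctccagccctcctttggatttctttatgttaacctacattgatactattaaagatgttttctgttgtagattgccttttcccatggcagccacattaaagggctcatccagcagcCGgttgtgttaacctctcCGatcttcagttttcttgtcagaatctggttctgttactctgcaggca
Across all 32851 promoters in the table, the median was 6 CG in the same 250 bases. Fgf4 had 21 CG, a number reached by 16.3% of promoters, and Dusp6 had 16, reached by 25.4%. Etv5 had 27 at its upstream start and 18 at its downstream start, reached by 8.56% and 21.7%. Fgfr2 had 2, and 81.2% of promoters had at least as many. The promoters not printed had 31 CG for Spred1 and 23 for Spry2. The CG-rich promoters therefore included that of Etv5, above the shift, and those of Fgf4, Spry2, Spred1 and Dusp6, below it. Methylation of these promoters was not measured. The ETS core motif GGAA, counted on both strands, occurred 6 times before Dusp6, 4 times before Spred1, 3 times before Spry2 and 2 times before Fgfr2. It occurred 4 times before the downstream and 0 times before the upstream start of Etv5, and 0 times before Fgf4. At least 1 GGAA was present in 93.4% of all promoters, with a median of 3. The longer ETS match CCGGAAGT, on either strand, was in 2.88% of all promoters and in none of the 7.

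None of the 9 genes was 2-fold different between the arrays, either relative to the shift or as deposited. Over the 12226 genes above the floor on at least 1 array, the background share that reached 2-fold relative to the shift was 1.09% upwards and 0.532% downwards (1.62% together). As deposited it was 4.92% upwards and 0.0982% downwards (5.02% together). None reached 1.5-fold relative to the shift either, against 4.74% of all measured genes upwards and 4.25% downwards (8.98% together). At such backgrounds a count of 0 among 9 genes is near the background. Within that range the genes were spread over about 1 unit of log2, from Fgfr1 at -0.56 to Fgfr2 at 0.47. Of the 9, 6 lay below the shift and 3 above it, with a median of -0.30, where the median of all measured genes was -0.0049 and 50.8% lay below the shift. As deposited the median of the 9 was 0.12 and 6 of them were brighter on the KO array, so the side on which the group lies depended on the scaling.

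**Figure D1:**
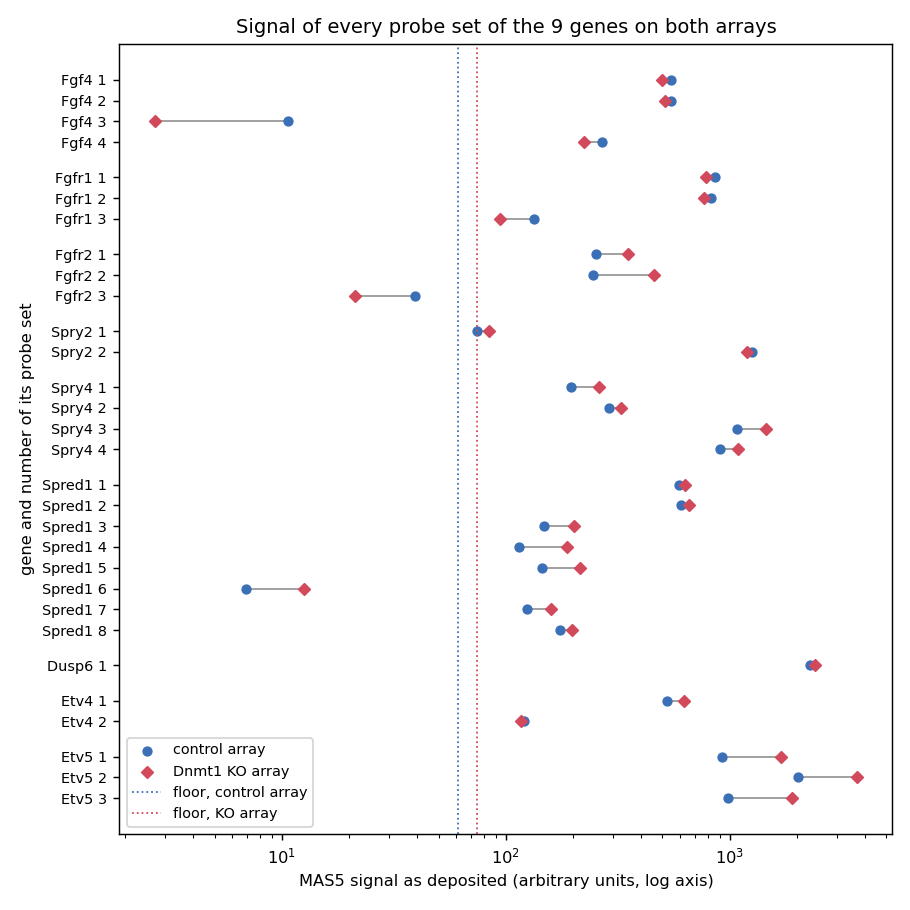
Deposited MAS5 signal (arbitrary units, log axis) of each of the 30 probe sets of the 9 genes, numbered within a gene, with circles for the control array, diamonds for the KO array and dotted lines for the floors of 60.9 and 74.2. The 3 Etv5 probe sets all move well to the right on the KO array, as does the brightest Fgfr2 probe set. The Fgf4 and Fgfr1 probe sets above the floor all move to the left.

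**Figure D2:**
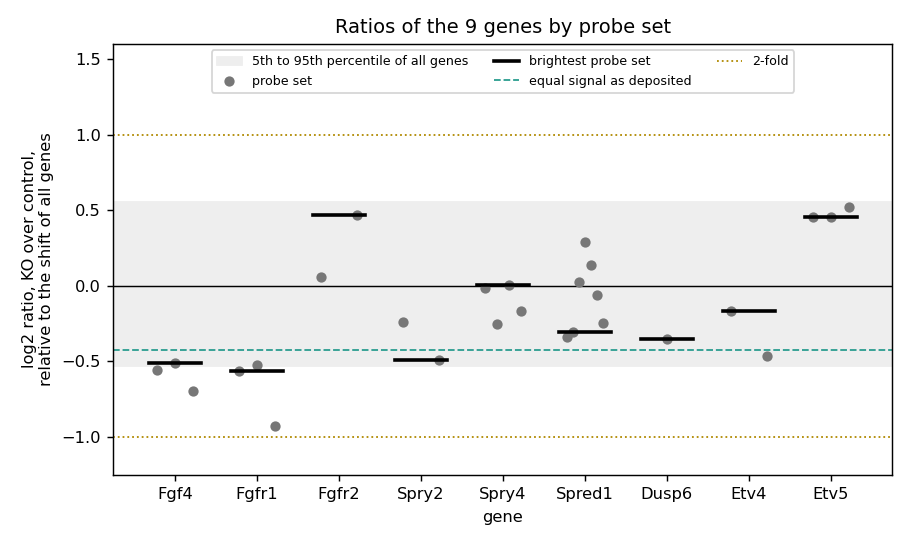
Log2 ratio of KO over control relative to the shift (vertical axis) for the 27 probe sets that exceeded both floors (points), by gene, with a bar at the brightest probe set of a gene. The grey band holds the middle 90% of all genes (-0.53 to 0.56), the dashed line marks equal deposited signal and the dotted lines 2-fold. No point passes 2-fold, and 18 of the 27 lie below the shift.

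Fgf4, the ligand that ES cells make for themselves, had a slightly lower signal on the KO array in every probe set above the floor. Its brightest probe set read 545.4 on the control and 515.2 on the KO array. The other probe sets above the floor went from 547.8 to 499.8 and from 269.8 to 223.6, and the first of these shares its source sequence with the brightest. Relative to the shift these ratios were -0.51, -0.56 and -0.70, averaging -0.59 ± 0.10 (SD, 3 probe sets), and the brightest was lower by 1.42-fold. As deposited the brightest differed by -0.08, less than the technical SD of 0.24. A ratio as low was found in 5.75% of all genes, and in 3.77% of genes of similar signal (within 0.5 on the log2 scale). The remaining Fgf4 probe set was far below the floor, at 10.6 and 2.7, and gives no ratio.

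The receptors lay on opposite sides of the shift. Fgfr1, the main FGF receptor of ES cells, read 862.4 on the control and 782.9 on the KO array, -0.56 relative to the shift or 1.48-fold lower, and -0.14 as deposited. Its other probe sets went from 819.5 to 763.8 and from 133.7 to 94.5, so all 3 were lower, with a mean of -0.67 ± 0.22 (SD). Fgfr2, a related receptor known for its role in primitive endoderm and trophoblast, read 246.0 and 457.2 on its brightest probe set. That is 0.47 relative to the shift, or 1.38-fold higher, and 0.89 as deposited. The next Fgfr2 probe set went from 251.9 to 352.3, only 0.06 above the shift, so the probe sets of Fgfr2 differed from each other by more than the technical SD. With that probe set alone, as happens when probe sets with an _s_at or _x_at suffix are left out, the Fgfr2 ratio was 0.06. The last Fgfr2 probe set was below the floor on both arrays (39.3 and 21.2). The difference between Fgfr2 and Fgfr1, which no constant shift can alter, was 1.03 on the brightest probe sets and 0.94 on the means over probe sets. The lowest Fgfr2 probe set was 0.59 above the highest of Fgfr1, a gap that includes the lower ratios of the chromosome of Fgfr1, described next.

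Fgfr1 is a chromosome 8 gene, and that chromosome as a whole had lower ratios. The 601 genes of it that exceeded both floors had a median of -0.37, and 90.3% lay below the shift. Set against that median, the brightest Fgfr1 probe set was at -0.20, within the technical SD. Of the chromosome 8 genes, 21.3% had a ratio as low or lower, and over all genes that share was 4.22%. When the probe sets of each gene were averaged, Fgfr1 was at -0.29 against chromosome 8, beyond the technical SD of 0.24. Taking each gene against the median of its own chromosome, the difference between Fgfr2 and Fgfr1 was 0.63 on the brightest probe sets. The gap of 0.59 between their nearest probe sets was not adjusted in this way. It contains the distance between the chromosome medians, 0.03 for chromosome 7 (Fgfr2) and -0.37 for chromosome 8. The other 8 genes lie on chromosomes with medians between -0.02 and 0.07, so this step moved their ratios by less than 0.1. Without Fgfr1 the median of the 8 was -0.24, with 5 of them below the shift. The chromosome and the genotype cannot be told apart in the ratio of Fgfr1.

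**Figure D3:**
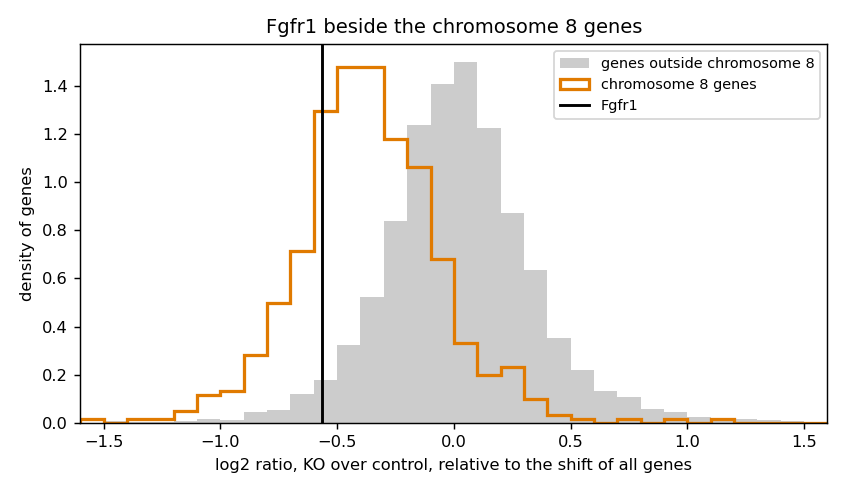
Density of genes (vertical axis) by log2 ratio of KO over control relative to the shift (horizontal axis, drawn from -1.6 to 1.6), for chromosome 8 genes (outline) and genes of other chromosomes (grey), with a line at Fgfr1. Fgfr1 at -0.56 is in the low tail of the grey genes but well inside the chromosome 8 genes, whose median was -0.37.

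The feedback inhibitors were at or below the shift. Spry2, a Sprouty protein that blocks receptor signals upstream of RAF, read 1249.1 on the control and 1194.0 on the KO array. Relative to the shift it was at -0.49, or 1.40-fold lower, against -0.07 as deposited. A ratio as low was found in 6.35% of all genes and in 3.92% of genes of similar signal. The dimmer Spry2 probe set, at 74.0 and 84.0, was close to the floor of both arrays and had -0.24. Spry4, its relative, read 1074.3 and 1448.5 on its brightest probe set, 0.01 relative to the shift. The other 3 Spry4 probe sets went from 904.9 to 1082.4, from 289.5 to 326.8 and from 196.2 to 260.4. They had ratios of -0.17, -0.25 and -0.02, and those with -0.25 and -0.02 were designed on the same source sequence. The mean of all 4 was -0.11 ± 0.12 (SD). Spry4 therefore followed the median gene, and its sign was positive in 3 of the 8 alternative settings that remove the shift. The probe sets of Spry4 and Spry2 overlapped in ratio.

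Spred1, which holds RAS signalling down at the membrane with neurofibromin, had 7 probe sets above the floor, and they differed from each other. The brightest pair, at 603.6 and 589.9 on the control array, read 656.8 and 627.2 on the KO array, with ratios of -0.30 and -0.34. Both were designed on the same source sequence, as was a dimmer probe set with a ratio of 0.02. The 5 outside the pair, that dimmer one included, had control signals from 114.3 to 174.2 and KO signals from 159.3 to 214.8. Their ratios ran from -0.24 to 0.29, and the rest of them shared source sequences in pairs. The mean of the 7 was -0.07 ± 0.24 (SD), and 3 of them lay above the shift. Spred1 was at -0.06 when its probe sets were averaged after the floor, against -0.30 on the brightest. An eighth probe set was below the floor, at 6.9 and 12.5. Dusp6, the phosphatase that removes phosphate from ERK in the cytoplasm, was read by 1 probe set, at 2287.7 on the control and 2404.9 on the KO array. That is -0.35 relative to the shift, or 1.28-fold lower, against 0.07 as deposited. A ratio as low was found in 12.0% of all genes and in 6.93% of genes of similar signal.

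The ETS factors of the PEA3 family did not move alike. Etv5 was the only one of the 9 genes whose probe sets above the floor all exceeded the shift by more than the technical SD. Those of Fgf4, Fgfr1 and Dusp6 all fell short of it by more. Dusp6 had a single probe set, and Spry2 missed this mark narrowly, with its dimmer probe set at -0.24. Against chromosome 8 the brightest Fgfr1 probe set, at -0.20, was within the technical SD. The Etv5 probe sets went from 2010.4 on the control to 3706.2 on the KO array, from 980.6 to 1888.0 and from 919.5 to 1696.0. The ratios relative to the shift were 0.46, 0.52 and 0.46, averaging 0.48 ± 0.04 (SD, 3 probe sets), and the second and the third of these probe sets were designed on the same source sequence. The brightest was 1.37-fold higher relative to the shift and 1.84-fold higher as deposited. Ratios as high were found in 7.47% of all genes, but in 12 of the 497 genes of similar signal (2.41%).

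Etv4 read 522.9 on the control and 625.5 on the KO array, -0.17 relative to the shift and 0.26 as deposited. Its dimmer probe set went from 119.8 to 116.5, a ratio of -0.47. The difference between Etv5 and Etv4 was 0.62 on the brightest probe sets and 0.79 on the means. Etv5 was also 0.81 above Dusp6 and 0.96 above Fgf4. These differences carry no constant shift, and the lowest Etv5 probe set was above the highest probe set of Etv4, Dusp6 and Fgf4.

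**Figure D4:**
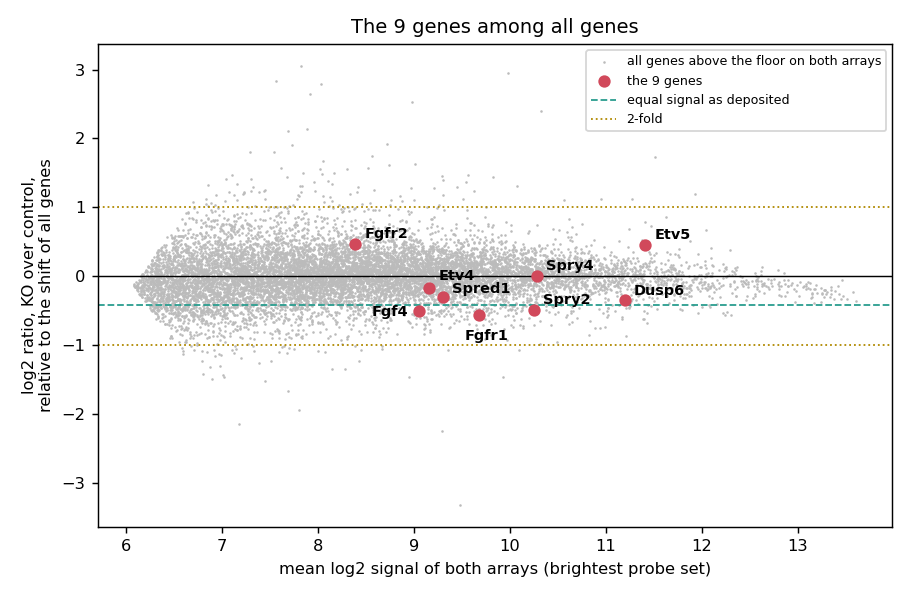
Log2 ratio of KO over control relative to the shift (vertical axis) against mean log2 signal of both arrays (horizontal axis) for the 10995 genes that exceeded both floors (grey), with the 9 genes in red, a dashed line at equal deposited signal and dotted lines at 2-fold. Etv5 lies at the upper edge of the genes of its brightness, where 12 of 497 were as high, and Fgf4, Fgfr1 and Spry2 lie towards the lower edge.

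The rest of the pathway was described with a list of 108 other genes, of which 99 were found and 79 were above the floor on at least 1 array. The remaining 9 were not analysed here. Of the 79, none reached 2-fold upwards and 1 reached it downwards relative to the shift, beside the backgrounds of 1.09% and 0.532%. As deposited the counts were 7 and 0. The median was -0.02, near the -0.0049 of all measured genes. Of these genes 39 lay above and 40 below the shift.

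Among the other FGF ligands, 14 of 21 were below the floor on both arrays, Fgf5, Fgf8 and Fgf2 among them (named after their values were seen). Fgf17 was the gene past 2-fold, going from 160.1 to 98.0 on 1 probe set (-1.13). Both signals were low, and the gene was under the floor of both arrays when the floor was set at the 75th percentile. Fgf15 and Fgf13 had -0.54 and -0.32. In the other direction Fgf1, named after its value was seen, was under the floor on the control array (60.2 to 150.1) and had a ratio of at least 0.88, or at least 1.30 as deposited. Of the 7 ligands measured, 3 lay above and 4 below the shift. Fgf15 (125.8 to 115.9) shares a cluster on chromosome 7 with Fgf4 and Fgf3, and Fgf3, named after its value was seen, was at the floor on the KO array (61.6 and 37.2). Among 10 receptors and co-receptors measured, ratios ran from -0.51 for Flrt3, an FGF receptor binding protein, to 0.33 for the glypican Gpc3. Of the adaptors and RAS regulators, 10 of 14 lay below the shift, beside 50.8% of all measured genes, and the median of the 14 was -0.07. Grb2, the adaptor that links receptors to SOS, was highest (600.9 to 1123.4, 0.48) and Frs3 lowest (-0.59).

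Of the RAS to ERK kinases measured, Ksr1, a scaffold that brings RAF and MEK together, was highest at 1.00, just under 2-fold (109.4 to 293.3 on 1 probe set). It was just past 2-fold in 5 of the settings that remove the shift, at 1.00 with lowess, 1.01 with the mean over probe sets, 1.02 with quantile normalization, 1.02 with a floor at the 25th percentile and 1.03 with no floor. It was at least 0.10 with a floor at the 75th percentile, and without _s_at and _x_at probe sets the gene was below the floor on both arrays. The lowest was Rps6ka3, an ERK-activated kinase, at -0.67, whose 2 probe sets differed widely (-0.21 ± 0.66, SD). The MEK genes Map2k1 and Map2k2, named after their values were seen, had 0.06 and 0.14. Of the 15 other feedback inhibitors measured, 8 lay above and 7 below the shift, with a median of 0.05. The highest was Dusp9, another ERK phosphatase, which went from 505.2 to 1159.2 (0.77, while its 3 probe sets averaged 0.68 ± 0.24, SD). The lowest was Dusp4 at -0.60. Spry1, named after its value was seen, had almost equal signals as deposited (337.9 and 339.2) and -0.42 relative to the shift, a ratio like that of Spry2.

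ERK-responsive transcription factors and targets lay on both sides, 10 above and 11 below the shift, with a median of -0.08. The highest was Trib1 (93.2 to 211.4, 0.76) and the lowest the immediate early gene Ier2 (-0.87). In genes named after their values were seen, Fos (307.0 to 636.6), Egr1 (1629.4 to 3126.5) and Phlda1 (577.4 to 1220.5) had 0.63, 0.51 and 0.65, whereas Ccnd1, cyclin D1, had -0.58. Genes commonly used as readouts of ERK thus had ratios on both sides of the shift. The 4 measured pathway genes on chromosome 8, Gab1, Dusp4, Ier2 and Junb (Gab1 and Junb named after their values were seen), lay between -0.87 and -0.48, and the 75 on other chromosomes had a median of 0.01.

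**Figure D5:**
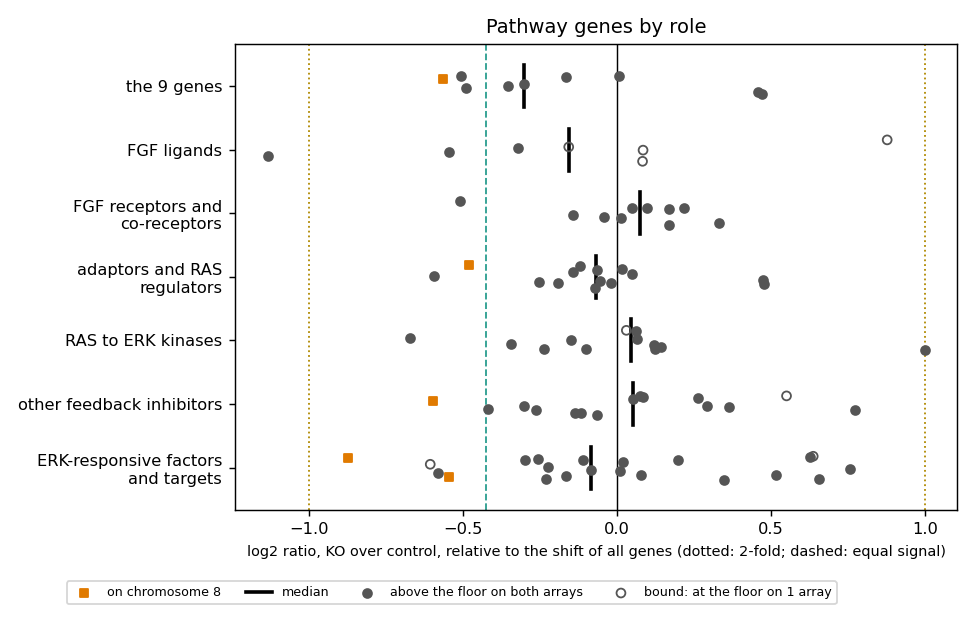
Log2 ratio of KO over control relative to the shift (horizontal axis) of the 9 genes and of the 79 other measured pathway genes by role (rows), with a bar at the median of each row, squares for chromosome 8 genes and open circles for bounds of genes at the floor on 1 array. The medians of the other roles lie between -0.16 and 0.07, and that of the 9 genes at -0.30.

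Genes that FGF and ERK signalling is known to promote or to lower around the exit from the naive state were set beside the pathway. Of 12 genes that it promotes, 10 were measured, none was 2-fold different and 8 had values below the shift. For 1 of the 8, Zic2, named after its value was seen, the side is not known. It was under the floor on the control array (57.6 to 80.9), with a ratio of at least -0.02. Their median was -0.20, or 0.22 as deposited. On the brightest probe sets the highest were Pou3f1 and Lef1 (0.30 and 0.28), and the lowest were Utf1 and Fgf15 (-0.62 and -0.54). The 2 probe sets of Utf1 differed widely (-0.33 ± 0.41, SD). Of 11 naive pluripotency genes that it lowers, all were measured, 4 reached 2-fold upwards (background 1.09%) and none downwards. Their median was 0.47, or 0.90 as deposited. Klf4 and Nr0b1 were highest (1.92 on the brightest of 2 probe sets and 1.497) and Klf5 and Klf2 lowest (-0.12 and -0.06). Klf2 and Zfp42 of this list lie on chromosome 8. These lists were not tested against each other, and the higher naive genes were already known from earlier results of these data.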

How the data were processed

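The authors deposited signal intensities made with MAS5, per the submitters' processing notes, which gives 1 linear signal for a probe set. Its target intensity and scaling, and any detection calls, are not given by the labels or the file. From the deposited values of 45101 probe sets, 64 controls were left out, and 34945 had 1 gene symbol in the platform annotation. Of these, 34741 were matched by gene identifier to RefSeq (GRCm38.p6). Signals under the median of an array were raised to it, log2 was taken, and the brightest probe set stood for a gene. The median ratio of genes exceeding both floors was subtracted. A ratio with 1 array at the floor is a bound. With 1 array per group no test was made, and precision is limited by the number of arrays. Python 3.11.15 and statsmodels 0.14.6 (lowess, fraction 0.4) were used, and the procedure was tested on simulated data.

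The 9 genes and all lists were chosen with earlier results of these data known. Named were the 9 genes, pathway genes at least 2-fold different, the highest and lowest gene of each role above the floor on both arrays, the 2 highest and 2 lowest of the lists on the naive state, and Dnmt1. The cell type markers were named from their lists by whether they exceeded the floor. Other names were chosen after their values were seen. Likeness of pattern to other genes cannot be measured over 2 arrays. Alternatives were other scalings, floors, fold thresholds and summaries of probe sets.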

Additional observations from a re-analysis of the deposited data

How the results depend on the processing

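The count of 0 among the 9 genes at 2-fold was the same under all 9 alternative scalings, floors and probe set rules. At 1.5-fold, counted only relative to the shift, it was also 0, which fixes the count at 3-fold in advance. As deposited, Fgfr2 (1.86-fold) and Etv5 (1.84-fold) exceeded 1.5-fold, and the share of all genes that did so was not counted. Their median was 0.12 as deposited and stayed between -0.34 and -0.26 in the other settings. The median of the other pathway genes was 0.40 as deposited. Their count at 2-fold, 0 up and 1 down of 79, was 7 as deposited (7 up, 0 down), 2 with quantile normalization, 2 with lowess and 2 with the mean of probe sets (each 1 up, 1 down). It was 4 of 93 with a floor at the 25th percentile (1 up, 3 down), 0 of 49 with a floor at the 75th percentile and 7 of 99 with no floor (2 up, 5 down). It was 13 of 79 at 1.5-fold (7 up, 6 down), beside 8.98% of all measured genes, and 0 at 3-fold. In the 8 settings that remove the shift, Fgf4, Fgfr1, Fgfr2, Spry2, Spred1, Dusp6, Etv4 and Etv5 kept their sign, Etv5 between 0.44 and 0.50 and Fgf4 between -0.57 and -0.47, while Spry4 ran from -0.09 to 0.05. As deposited, Spred1, Dusp6 and Etv4 changed sign. Fgfr1 against chromosome 8 stayed between -0.29 and -0.14. Leaving out _s_at and _x_at probe sets was added after the data were seen. No paired analysis was possible because each group has 1 array. Low signals limit Fgf17, the dimmer Spry2 probe set and the FGF ligands near the floor.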
